A study of Mus musculus with 4 samples.

Results

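The collagen genes of the mouse were followed in Shh+ and Nfatc1+ cells of the embryonic hair peg, the downgrowth of epithelium that becomes a hair follicle. All genes whose symbol has the form Col, a number, a and a number were taken, which gave 44 of the 23361 genes in the expression table. RNA was sequenced from 2 libraries of Shh+ cells and 2 libraries of Nfatc1+ cells sorted from back skin at E17.5. The Shh+ cells came from Shh-CreER::Rosa-stop-tdTomato::K14-H2BGFP embryos and the Nfatc1+ cells from Nfatc1-CreER::Rosa-stop-tdTomato::K14-H2BGFP embryos. The mothers of both had received tamoxifen at E15.5. CreER is a recombinase that tamoxifen activates, so the red tdTomato reporter stays on in cells that expressed Shh or Nfatc1 when tamoxifen acted and in their descendants. K14-H2BGFP labels the nuclei of basal epithelial cells green, and cells with both colours were collected. Shh is expressed toward the lower tip of the hair peg and Nfatc1 in its upper part, and the study compared the RNA of these 2 groups of cells.

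Skin was taken apart differently for the 2 populations. For Shh+ cells it lay in dispase, the epidermis was peeled away, and the dermis with its hair pegs was treated with trypsin for 10 min. For Nfatc1+ cells the whole skin was treated with trypsin for 16 min. Population and digestion cannot be told apart in these libraries. Whether the libraries of a population were from separate litters is not stated. The p-values therefore describe the variation among these 4 libraries, and that variation may be technical. The read depth of the libraries is not given. Judged from the value of 1 fragment among genes under 0.3 FPKM, the depth relative to Nfatc1+ replicate 1 was 0.927 and 0.573 in Shh+ replicates 1 and 2 and 0.928 in Nfatc1+ replicate 2. All 7 epithelial markers looked up were present, with summed levels of 6502 to 6699 FPKM in Shh+ cells and 9849 to 10104 FPKM in Nfatc1+ cells. Of the 7, 5 (71.4%) were lower in Shh+ cells and 0 were higher, with shares of 18.9% lower and 18.1% higher over all genes tested. Mean FPKM was 2.21-fold higher in Nfatc1+ cells for Krt15, 1.90-fold for Cdh1, 1.78-fold for Krt5 and 1.30-fold for Trp63. Of 11 immediate early genes, which tissue digestion can induce, 10 (90.9%) were lower in Shh+ cells and 0 were higher, with shares of 18.9% lower and 18.1% higher over the 12750 genes tested. Their summed levels were 1245 to 1335 FPKM in Shh+ cells and 2764 to 3075 FPKM in Nfatc1+ cells, and their part in the results was not tested.

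Collagens are proteins of the extracellular matrix in which 3 chains wind into a triple helix, and each gene encodes 1 kind of chain. Fibrillar collagens build the cables of the dermis, and the FACIT collagens (fibril-associated collagens with interrupted triple helices) sit on such fibrils. Type IV collagens form the sheet-like network of the basement membrane under the epithelium, which type XVII collagen, a transmembrane protein of the hemidesmosome, and type VII collagen, the anchoring fibril, tie to the basal cells above and the dermis below. In skin most fibrillar and type VI collagen is made by fibroblasts, whereas basal keratinocytes make type XVII, type VII and some type IV collagen.

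Collagen genes carried more RNA in Nfatc1+ than in Shh+ cells, and the classes did not move together. Expression was measured as FPKM, in which the fragments of a gene are divided by its transcript length and by the mapped fragments of the library, so that levels of genes of different length can be compared. The 44 genes summed to 822 and 762 FPKM in Shh+ replicates 1 and 2, against 1192 and 1534 FPKM in Nfatc1+ replicates 1 and 2. This was 0.172% and 0.159% of all FPKM in Shh+ cells and 0.249% and 0.328% in Nfatc1+ cells. Both Shh+ libraries were below both Nfatc1+ libraries, which themselves lay far apart. FACIT collagens summed to 42.2 and 43.98 FPKM in Shh+ cells, against 234 and 240.4 FPKM in Nfatc1+ cells. Transmembrane collagens were at 128 and 129.8 FPKM in Shh+ cells, against 319 and 326 FPKM in Nfatc1+ cells. Nearly all of that was Col17a1, at 127 and 129 FPKM in Shh+ cells and 314 and 321 FPKM in Nfatc1+ cells. The sum of the multiplexins, basement membrane proteins with an interrupted helix, ran the other way. It was 95.7 and 95.3 FPKM in Shh+ cells, against 62.2 and 72.0 FPKM in Nfatc1+ cells. Col18a1 made up 95.1 and 94.5 FPKM of the Shh+ sums and 60.9 and 69.3 FPKM of the Nfatc1+ sums. Col15a1, the other multiplexin, was higher in Nfatc1+ cells. Fibrillar collagens, the largest class in each of the 4 libraries, were at 336 and 288 FPKM in Shh+ cells, against 324 and 585 FPKM in Nfatc1+ cells. Here the populations overlapped. These are bulk values of sorted cells, in which fewer cells of a type and less RNA per cell cannot be told apart.

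**Figure D1:**
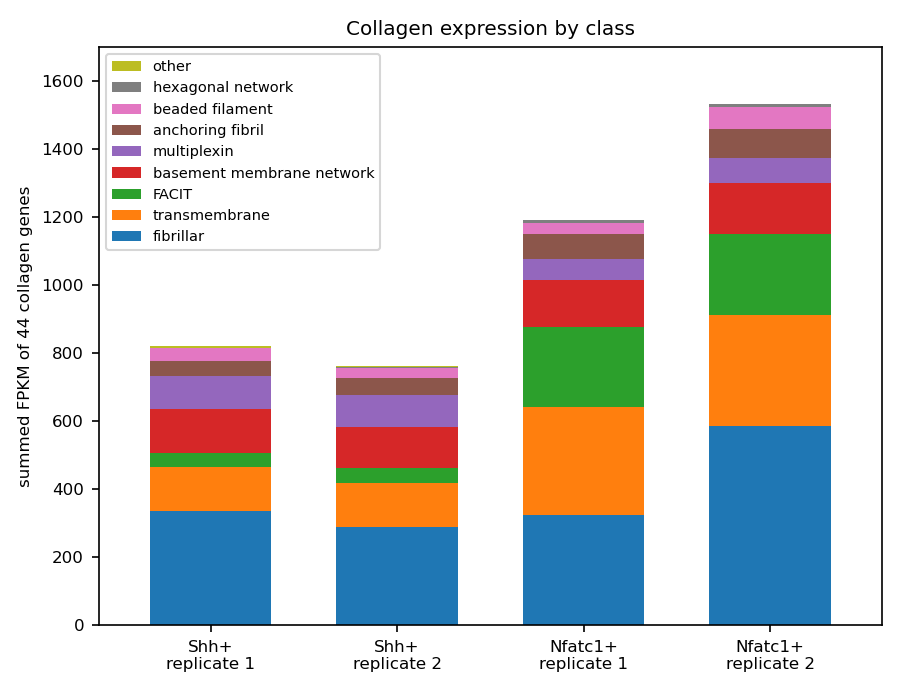
Summed FPKM of the 44 collagen genes in each library (vertical axis, FPKM), stacked by collagen class; Shh+ replicates 1 and 2 are on the left and Nfatc1+ replicates 1 and 2 on the right. The FACIT segment is 42.2 and 43.98 FPKM high in Shh+ cells and 234 and 240.4 FPKM in Nfatc1+ cells, and the fibrillar segment of Nfatc1+ replicate 2, at 585 FPKM, stands above those of the other libraries.

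Of the 44 genes, 31 reached a mean of 0.5 FPKM over the 4 libraries and were tested with limma on log2(FPKM + 0.5), with Benjamini-Hochberg adjustment over the 12750 genes tested and a call at an adjusted p under 0.05. Shh+ cells had more RNA of 5 collagen genes (16.1%, against 18.1% of all tested genes), and Nfatc1+ cells had more of 14 (45.2%, against 18.9% of all tested genes), while 12 were not called. When a difference of 2-fold or more on the fitted scale was also required, 2 were higher in Shh+ cells (4.77% of all tested genes were) and 9 were lower in them (5.81% of all tested genes were). The median log2 fold change, Shh+ minus Nfatc1+, was −0.55 over the 31 collagen genes and 0.00 over all tested genes. Of the 31, Col5a3, Col23a1 and Col20a1 averaged under 0.5 FPKM in Shh+ cells and passed the minimum through Nfatc1+ cells. Col5a3 and Col23a1 are among the 14 counted as higher in Nfatc1+ cells, and Col5a3 is also among the 9 at 2-fold or more. The filter favours such genes in that direction. The 13 genes left out of the test (Col2a1, Col4a3, Col4a4, Col6a4, Col6a5, Col6a6, Col9a1, Col10a1, Col13a1, Col19a1, Col22a1, Col24a1 and Col28a1) were at or below 0.437 FPKM in every library, and 2 of them, Col6a4 and Col10a1, were listed at 0 throughout. The log2 fold changes below understate the change of low genes because of the added 0.5 FPKM, and folds are ratios of mean FPKM.

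**Figure D2:**
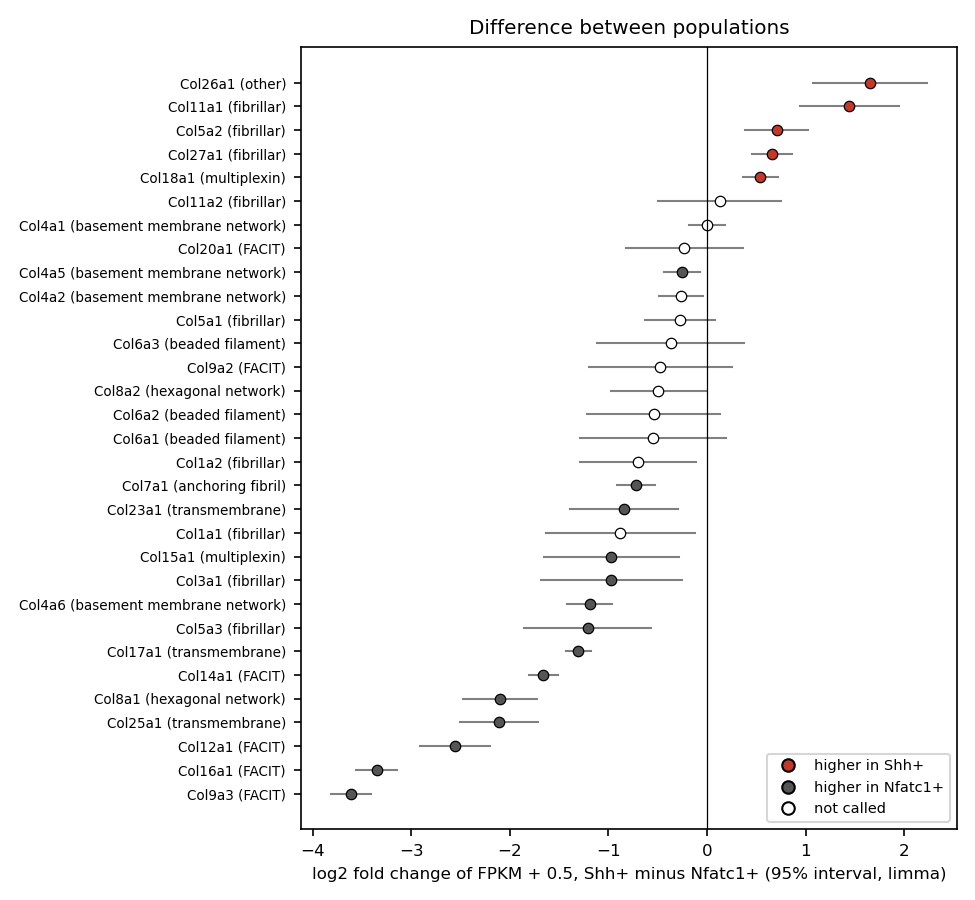
Log2 fold change of FPKM + 0.5, Shh+ minus Nfatc1+ (horizontal axis), of the 31 tested collagen genes, each with its class and the 95% confidence interval from limma; red points were called higher in Shh+ cells, grey points higher in Nfatc1+ cells and white points were not called. The values run from 1.66 for Col26a1 to −3.62 for Col9a3, and 5 red points stand against 14 grey ones.

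The collagens that fasten keratinocytes to the basement membrane were higher in Nfatc1+ cells. Col17a1 encodes type XVII collagen, the transmembrane collagen of the hemidesmosome, and lies on chromosome 19 of GRCm38 (47646344 to 47692094, minus strand). It was at 127 and 129 FPKM in Shh+ cells, against 314 and 321 FPKM in Nfatc1+ cells, and the populations did not overlap (log2 fold change −1.31 ± 0.05 SE, n = 2 each, adjusted p = 8.61e-06 by limma). Col7a1, the gene of the anchoring fibril (chromosome 9, 108953586 to 108984875, plus strand), was at 46.4 and 50.3 FPKM in Shh+ cells, against 74.98 and 85.03 FPKM in Nfatc1+ cells (log2 fold change −0.72 ± 0.08 SE, adjusted p = 0.000645 by limma). The difference of Col7a1 was 1.65-fold in mean FPKM and that of Col17a1 2.48-fold, both higher in Nfatc1+ cells.

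The other tested transmembrane collagens were far less abundant and were lower in Shh+ cells as well. Col25a1, known best from neurons, was at 0.549 and 0.492 FPKM in Shh+ cells, against 3.88 and 3.93 FPKM in Nfatc1+ cells (log2 fold change −2.11 ± 0.17 SE, adjusted p = 0.000128 by limma). Col23a1 was at 0.354 and 0.326 FPKM in Shh+ cells, against 0.875 and 1.15 FPKM in Nfatc1+ cells (log2 fold change −0.84 ± 0.23 SE, adjusted p = 0.0278 by limma). The call of Col23a1 ended when any single library was left out, with adjusted p = 0.0605 and 0.0702 without Shh+ replicate 1 or 2 and 0.0501 and 0.136 without Nfatc1+ replicate 1 or 2. Col13a1, the remaining transmembrane collagen, was at 0.102 and 0.0546 FPKM in Shh+ cells and listed at 0 in both Nfatc1+ libraries.

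Partners of these collagens at the hemidesmosome were measured too. Of 8 hemidesmosome and anchoring genes tested, 6 (75%, with a share of 18.9% over all genes) were lower in Shh+ cells, and Lama3 was not called. Itga6, the integrin chain that pairs with Itgb4 in the hemidesmosome, was at 24.8 and 32.5 FPKM in Shh+ cells, against 90.4 and 94.6 FPKM in Nfatc1+ cells (log2 fold change −1.69 ± 0.12 SE, adjusted p = 7.97e-05 by limma). Itgb4, which binds type XVII collagen inside the cell, was at 44.5 and 41.6 FPKM in Shh+ cells, against 80.6 and 88.8 FPKM in Nfatc1+ cells (log2 fold change −0.97, adjusted p = 0.000103 by limma). Lamb3, a chain of the laminin that links hemidesmosomes to anchoring fibrils, was at 64.9 and 58.6 FPKM in Shh+ cells, against 120.4 and 119.8 FPKM in Nfatc1+ cells (log2 fold change −0.96, adjusted p = 7.78e-05 by limma). The plakins Dst and Plec, which connect Col17a1 and Itgb4 to keratin filaments, were lower in Shh+ cells, with log2 fold changes of −0.88 and −0.50 (adjusted p = 9.85e-05 and 0.00516 by limma).

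On the log2(FPKM + 0.5) scale the 3 largest differences among the 31 tested collagen genes were those of the FACIT collagens Col9a3, Col16a1 and Col12a1. By the ratio of mean FPKM the transmembrane Col25a1 (7.51-fold higher in Nfatc1+ cells) came before Col12a1 (6.59-fold). Of the 6 FACIT genes tested, 0 were higher (against 18.1% of all tested genes) and 4 lower in Shh+ cells (66.7%, against 18.9%). These 4 had 3.20-fold to 14.0-fold more mean FPKM in Nfatc1+ cells. Col9a3, a chain of type IX collagen known from cartilage (chromosome 2, 180597790 to 180622189, plus strand), was at 3.11 and 3.23 FPKM in Shh+ cells, against 43.2 and 45.7 FPKM in Nfatc1+ cells (14.0-fold higher in Nfatc1+ cells, log2 fold change −3.62 ± 0.09 SE, adjusted p = 2.57e-06 by limma). Its usual partner chains were low. Col9a1 stayed at or below 0.0996 FPKM, and Col9a2 was at 0.574 and 0.694 FPKM in Shh+ cells, against 1.60 and 0.682 FPKM in Nfatc1+ cells. Col9a3 shares 234 exon bases, 6.07% of its exon bases in GENCODE M21, with Tcfl5 on the opposite strand. Tcfl5 was at 0.363 and 0.511 FPKM in Shh+ cells, against 0.504 and 0.499 FPKM in Nfatc1+ cells.

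Col16a1 (chromosome 4, 130047840 to 130099283, plus strand), a FACIT that lies close to basement membranes in skin, was at 6.69 and 7.79 FPKM in Shh+ cells, against 77.5 and 79.2 FPKM in Nfatc1+ cells (10.8-fold higher in Nfatc1+ cells, log2 fold change −3.35 ± 0.09 SE, adjusted p = 2.91e-06 by limma). Col12a1 and Col14a1 encode FACITs that decorate type I collagen fibrils. Col12a1 was at 3.41 and 3.94 FPKM in Shh+ cells, against 20.8 and 27.6 FPKM in Nfatc1+ cells (log2 fold change −2.55 ± 0.15 SE, adjusted p = 3.28e-05 by limma). Col14a1 was at 27.7 and 27.5 FPKM in Shh+ cells, against 90.3 and 86.5 FPKM in Nfatc1+ cells (log2 fold change −1.66 ± 0.06 SE, adjusted p = 5.78e-06 by limma). In each of these 4 genes the spread between replicates was small beside the distance between the populations. Col20a1, the other FACIT not called, stayed at or below 0.683 FPKM.

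RefSeq gives the stretch from 250 bases before to 50 bases after the start site for 35 of the 44 collagen genes (38 windows, GRCm38.p6), and the windows of Col16a1 and Col17a1 are shown because these genes carried much of the difference. The other 9 genes are Col1a1, Col2a1, Col4a3, Col5a2, Col9a3, Col12a1, Col14a1, Col22a1 and Col26a1. All windows are written 5′ to 3′ along the strand of the gene. Capitals mark TATAAA (the core of a TATA box), CCAAT and GGGCGG (a GC box) on either strand, so that ATTGG and CCGCCC are the same motifs read from the other strand. No marked motif overlaps another in the windows printed here. The window of Col16a1 is rich in G and C (74.3%) with GC boxes and a CCAAT. That of Col17a1 (46.3% G and C) has TATAAA 140 and 91 bases before the start and a CCAAT 31 bases before it.
Col16a1 (chr4:130047590-130047889, plus strand): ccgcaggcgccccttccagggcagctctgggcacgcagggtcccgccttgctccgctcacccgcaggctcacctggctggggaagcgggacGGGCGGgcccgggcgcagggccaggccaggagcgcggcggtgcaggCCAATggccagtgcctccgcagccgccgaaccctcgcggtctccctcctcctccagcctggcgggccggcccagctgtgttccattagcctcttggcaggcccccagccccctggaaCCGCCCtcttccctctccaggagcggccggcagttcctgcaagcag
Col17a1 (chr19:47691993-47692292, minus strand): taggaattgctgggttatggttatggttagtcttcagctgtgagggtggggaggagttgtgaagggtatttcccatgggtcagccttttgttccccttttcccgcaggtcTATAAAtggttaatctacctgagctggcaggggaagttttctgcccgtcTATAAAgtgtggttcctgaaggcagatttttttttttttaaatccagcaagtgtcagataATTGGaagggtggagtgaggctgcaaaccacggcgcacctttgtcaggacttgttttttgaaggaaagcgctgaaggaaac

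Over the 32851 RefSeq windows counted, 13.6% held TATAAA, 37.4% CCAAT and 35.7% GGGCGG. The count left out the windows of 1 chromosome, on which none of the collagen genes lies. Among the 38 windows of the 35 collagen genes, 5 held TATAAA, 13 CCAAT and 23 GGGCGG. Matches to short motifs are a description of the letters and not evidence of a bound site. TGANTCA, the motif of AP-1 factors, was in 7.8% of the windows counted and in the window of 1 collagen gene, Col6a1. CTTTGAT, a motif of TCF and LEF factors, was in 3.7% of the windows counted and in that of 1 collagen gene, Col9a2.

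Type IV collagen genes lie as head-to-head pairs, and in the 2 expressed pairs the largest difference was that of Col4a6. Col4a1 and Col4a2 encode the chains of the common network of basement membranes. Col4a1 (chromosome 8, 11198423 to 11312826, minus strand) was at 67.5 and 62.6 FPKM in Shh+ cells, against 61.7 and 68.4 FPKM in Nfatc1+ cells, with overlapping values and a log2 fold change of 0.00 (95% interval −0.18 to 0.18, adjusted p = 0.996 by limma). Col4a2 (chromosome 8, 11312805 to 11449287, plus strand) was at 37.9 and 33.3 FPKM in Shh+ cells, against 40.1 and 45.8 FPKM in Nfatc1+ cells (log2 fold change −0.27, 95% interval −0.49 to −0.04, adjusted p = 0.0636 by limma). Neither gene was called.

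Col4a5 and Col4a6 encode the chains of a second network that the skin basement membrane holds beside the common one. Col4a6 (chromosome X, 141165403 to 141474076, minus strand) was at 4.97 and 5.28 FPKM in Shh+ cells, against 12.5 and 12.2 FPKM in Nfatc1+ cells (log2 fold change −1.19 ± 0.10 SE, adjusted p = 0.000146 by limma). Col4a5 (chromosome X, 141475385 to 141689234, plus strand) was at 18.4 and 19.4 FPKM in Shh+ cells, against 22.0 and 23.2 FPKM in Nfatc1+ cells (log2 fold change −0.25 ± 0.08 SE, adjusted p = 0.0378 by limma). Mean FPKM was thus 2.41-fold higher in Nfatc1+ cells for Col4a6 and 1.20-fold higher for its neighbour. The log2 fold change of Col4a5 was close to that of Col4a2 (−0.27), which was not called. The call of Col4a5 ended without any single library, with adjusted p = 0.128 and 0.0601 without Shh+ replicate 1 or 2 and 0.0955 and 0.199 without Nfatc1+ replicate 1 or 2. Col4a3 and Col4a4, the remaining pair, were at or below 0.437 FPKM in all libraries.

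The promoter windows of both pairs are shown because each pair shares its upstream region. In RefSeq the start sites of Col4a1 and Col4a2 lie so close that the transcripts overlap at their 5′ ends and the windows share 78 bases, while those of Col4a6 and Col4a5 are 1343 bases apart and the windows share 0 bases. Capitals mark the same motifs as above. The Col4a1 and Col4a2 windows hold 74.0% and 73.7% G and C, and those of Col4a6 and Col4a5 48.3% and 52.7%. A GC box stands 21 bases before the start of Col4a6 and 30 bases before that of Col4a5.
Col4a1 (chr8:11312777-11313076, minus strand): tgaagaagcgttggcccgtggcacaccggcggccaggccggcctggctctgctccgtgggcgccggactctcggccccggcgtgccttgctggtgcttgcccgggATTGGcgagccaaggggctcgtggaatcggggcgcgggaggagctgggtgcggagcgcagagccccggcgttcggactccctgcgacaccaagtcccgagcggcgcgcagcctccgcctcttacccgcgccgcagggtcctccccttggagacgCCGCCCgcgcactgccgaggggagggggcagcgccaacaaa
Col4a2 (chr8:11312555-11312854, plus strand): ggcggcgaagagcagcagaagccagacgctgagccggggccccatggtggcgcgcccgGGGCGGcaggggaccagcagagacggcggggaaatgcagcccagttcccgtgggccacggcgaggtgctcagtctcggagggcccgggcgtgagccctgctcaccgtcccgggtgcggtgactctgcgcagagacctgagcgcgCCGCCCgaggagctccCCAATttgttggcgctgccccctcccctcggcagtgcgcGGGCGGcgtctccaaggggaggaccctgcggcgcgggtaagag
Col4a6 (chrX:141474027-141474326, minus strand): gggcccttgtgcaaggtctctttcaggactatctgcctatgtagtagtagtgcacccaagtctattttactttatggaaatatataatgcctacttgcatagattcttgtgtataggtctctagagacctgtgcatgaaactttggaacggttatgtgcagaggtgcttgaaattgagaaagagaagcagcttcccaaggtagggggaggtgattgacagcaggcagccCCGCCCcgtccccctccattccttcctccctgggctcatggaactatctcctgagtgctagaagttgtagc
Col4a5 (chrX:141475169-141475468, plus strand): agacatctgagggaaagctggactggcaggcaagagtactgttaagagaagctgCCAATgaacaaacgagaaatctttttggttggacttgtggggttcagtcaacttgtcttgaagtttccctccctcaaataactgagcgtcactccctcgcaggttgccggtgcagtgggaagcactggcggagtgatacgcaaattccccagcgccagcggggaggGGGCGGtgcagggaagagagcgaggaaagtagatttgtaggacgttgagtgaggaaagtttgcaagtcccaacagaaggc

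Ratios of partner chains within a library set apart the pairs that kept their proportion from those that did not. The pairs were chosen after the values had been seen. With 2 libraries a side the exact permutation test cannot go below p = 0.333, so the ratios are descriptions. The ratio of Col4a5 to Col4a6 was 3.69 and 3.67 in Shh+ cells, against 1.77 and 1.90 in Nfatc1+ cells. For Col4a1 to Col4a2 it was 1.78 and 1.88 in Shh+ cells, against 1.54 and 1.49 in Nfatc1+ cells. Col5a1 to Col5a2, the chains of type V collagen, gave 0.868 and 0.651 in Shh+ cells, against 1.57 and 1.44 in Nfatc1+ cells. In these pairs the populations did not overlap, and in the type V pair the more abundant chain was Col5a2 in Shh+ cells and Col5a1 in Nfatc1+ cells. The chains of type I collagen kept close to parity, with Col1a1 to Col1a2 at 0.979 and 0.841 in Shh+ cells, against 0.955 and 1.11 in Nfatc1+ cells. Col6a1 to Col6a2 was at 0.834 and 0.877 in Shh+ cells, against 0.818 and 0.909 in Nfatc1+ cells. Col6a3 to Col6a2 was at 0.917 and 1.01 in Shh+ cells, against 0.799 and 0.906 in Nfatc1+ cells. The ratios of type I and type VI chains overlapped between the populations.

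**Figure D3:**
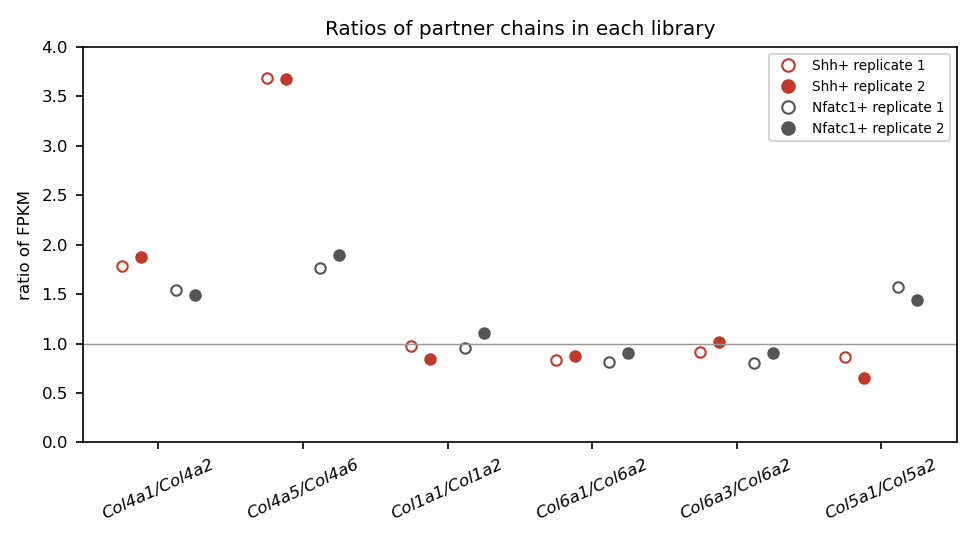
Ratio of the FPKM of partner chains (vertical axis) in each library, with Shh+ libraries in red to the left of Nfatc1+ libraries in grey; open points are replicate 1, filled points replicate 2, and the line marks a ratio of 1. The ratio of Col4a5 to Col4a6 stands at 3.69 and 3.67 in Shh+ cells and at 1.77 and 1.90 in Nfatc1+ cells, while the ratios of the type I and type VI chains overlap between the populations.

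A multiplexin and 3 fibrillar collagens were among the 5 genes higher in Shh+ cells. Col18a1, a heparan sulfate proteoglycan of basement membranes from which endostatin is cut (chromosome 10, 77052178 to 77166548, minus strand), was at 95.1 and 94.5 FPKM in Shh+ cells, against 60.9 and 69.3 FPKM in Nfatc1+ cells (log2 fold change 0.54 ± 0.07 SE, adjusted p = 0.00157 by limma). Col27a1, a fibrillar collagen known from cartilage (chromosome 4, 63214004 to 63334991, plus strand), was at 42.5 and 39.1 FPKM in Shh+ cells, against 24.2 and 27.2 FPKM in Nfatc1+ cells (log2 fold change 0.66 ± 0.08 SE, adjusted p = 0.00107 by limma). Col5a2 (chromosome 1, 45374321 to 45503282, minus strand) was at 45.3 and 45.9 FPKM in Shh+ cells, against 23.7 and 32.4 FPKM in Nfatc1+ cells (log2 fold change 0.71 ± 0.13 SE, adjusted p = 0.0065 by limma). These 3 genes were 1.46-fold to 1.63-fold higher in Shh+ cells, and none of their values overlapped between the populations.

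The remaining genes called higher in Shh+ cells were low but differed more. Col11a1, whose chain joins type V and type XI fibrils, was at 2.698 and 2.038 FPKM in Shh+ cells, against 0.471 and 0.627 FPKM in Nfatc1+ cells (4.31-fold, log2 fold change 1.45 ± 0.21 SE, adjusted p = 0.00208 by limma). Col26a1, which belongs to none of the main classes, was at 5.94 and 4.52 FPKM in Shh+ cells, against 0.946 and 1.75 FPKM in Nfatc1+ cells (3.88-fold, log2 fold change 1.66 ± 0.24 SE, adjusted p = 0.00211 by limma). All 5 genes called higher in Shh+ cells were called under each of the 12 alternative settings of limma that could test them.

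Genes of low level also stood among those higher in Nfatc1+ cells. Col8a1, a short-chain collagen of hexagonal networks, was at 1.31 and 1.81 FPKM in Shh+ cells, against 8.25 and 8.27 FPKM in Nfatc1+ cells (log2 fold change −2.10 ± 0.16 SE, adjusted p = 9.85e-05 by limma). Col5a3, another type V chain, was at 0.0783 and 0.278 FPKM in Shh+ cells, against 0.885 and 1.24 FPKM in Nfatc1+ cells (log2 fold change −1.21 ± 0.27 SE, adjusted p = 0.0129 by limma, and 0.0725 without Nfatc1+ replicate 2). Col15a1, the multiplexin related to Col18a1, was at 0.665 and 0.840 FPKM in Shh+ cells, against 1.35 and 2.74 FPKM in Nfatc1+ cells, opposite in direction to Col18a1 (log2 fold change −0.97 ± 0.29 SE, adjusted p = 0.0373 by limma). The call of Col15a1 ended without Shh+ replicate 1 (adjusted p = 0.14), Shh+ replicate 2 (0.0857) or Nfatc1+ replicate 2 (0.185). Col8a2 and Col11a2 stayed at or below 1.89 FPKM in all libraries and were not called.

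The collagens of dermal fibrils and beaded filaments differed as much between the Nfatc1+ libraries as between the populations. Col1a1, which with Col1a2 makes type I collagen (chromosome 11, 94936224 to 94953042, plus strand), was at 71.6 and 52.7 FPKM in Shh+ replicates 1 and 2, against 77.9 and 165 FPKM in Nfatc1+ replicates 1 and 2 (log2 fold change −0.88 ± 0.32 SE, adjusted p = 0.0712 by limma). Col1a2 (chromosome 6, 4504814 to 4541544, plus strand) was at 73.1 and 62.7 FPKM in Shh+ cells, against 81.5 and 148 FPKM in Nfatc1+ cells (log2 fold change −0.70 ± 0.25 SE, adjusted p = 0.0657 by limma). Col3a1, the gene of type III collagen that accompanies type I in skin (chromosome 1, 45311538 to 45349706, plus strand), was at 59.8 and 53.6 FPKM in Shh+ cells, against 76.6 and 162 FPKM in Nfatc1+ cells (log2 fold change −0.97 ± 0.30 SE, adjusted p = 0.0422 by limma). In all 3 genes the second Nfatc1+ library stood alone at the top, and the other 3 libraries lay within 52.7 and 81.5 FPKM.

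The type VI genes, whose chains assemble into beaded filaments around fibrils, also had their highest level in Nfatc1+ replicate 2, but their populations overlapped. Col6a1 was at 10.9 and 8.31 FPKM in Shh+ cells, against 9.71 and 20.5 FPKM in Nfatc1+ cells. For Col6a2 the levels were 13.02 and 9.468 FPKM in Shh+ cells, against 11.9 and 22.6 FPKM in Nfatc1+ cells. For Col6a3 they were 11.9 and 9.58 FPKM in Shh+ cells, against 9.49 and 20.5 FPKM in Nfatc1+ cells. None of the 3 was called (log2 fold changes −0.55, −0.54 and −0.37, adjusted p = 0.21, 0.178 and 0.395 by limma). Col5a1, which joins type I fibrils and sets their width, was at 39.4 and 29.9 FPKM in Shh+ cells, against 37.3 and 46.6 FPKM in Nfatc1+ cells, and was not called either (log2 fold change −0.28 ± 0.15 SE, adjusted p = 0.192 by limma).

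The log2 fold changes of Col1a1, Col1a2, Col3a1 and the 3 type VI genes depended on which Nfatc1+ library was used. Without Nfatc1+ replicate 1, Col1a1, Col1a2, Col6a1, Col6a2 and Col6a3 became called higher in Nfatc1+ cells (adjusted p = 0.00195, 0.000801, 0.00647, 0.0119 and 0.00829 by limma), while the log2 fold change of Col3a1 was −1.51. Without Nfatc1+ replicate 2 the log2 fold change of Col3a1 was −0.43 and that of Col1a1 −0.34. The call of Col3a1 held when either Nfatc1+ library was left out. It ended without Shh+ replicate 1 or 2, at log2 fold changes of −1.05 and −0.89. With these 6 genes set aside, 25 collagen genes remained in the test, of which 5 were higher in Shh+ cells and 13 were lower. Of all tested genes, 18.1% were higher and 18.9% lower in Shh+ cells.

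The 6 genes were picked by their rise between the Nfatc1+ replicates. They are the collagen genes averaging 10 FPKM or more that rose by at least 0.8 log2 units in replicate 2. Their shared rise and their distance from the other collagen genes in Nfatc1+ cells thus follow from the choice. In Nfatc1+ replicate 2 the 6 genes were 1.82-fold to 2.16-fold their level in replicate 1. In Shh+ cells their level in replicate 2 was at 0.727 to 0.896 of replicate 1. The other 13 collagen genes that averaged 10 FPKM or more were at 0.761 to 1.16 of replicate 1 in Shh+ replicate 2 and at 0.958 to 1.36 in Nfatc1+ replicate 2. Of 7257 genes of that level, 21 (0.289%) were higher by at least 0.8 log2 units in Nfatc1+ replicate 2. This limit, chosen after the values had been seen, is the one that defines the 6 collagen genes, which are 6 of the 21. Col3a1 ranked sixth and Col1a1 seventh of the 7257, and Col6a3, Col6a1, Col6a2 and Col1a2 took ranks 9, 11, 16 and 18. In Shh+ cells the log2 differences of replicate 2 from replicate 1 spread with an SD of 0.21 over the 19 collagen genes and of 0.28 over all genes of that level. In Nfatc1+ cells the SD was 0.42 over the collagen genes and 0.21 over all genes. Summed, the 6 genes were at 240.3 and 196 FPKM in Shh+ cells, against 267 and 539 FPKM in Nfatc1+ cells, while all other collagen genes were at 582 and 566 FPKM in Shh+ cells, against 925 and 995 FPKM in Nfatc1+ cells.

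**Figure D4:**
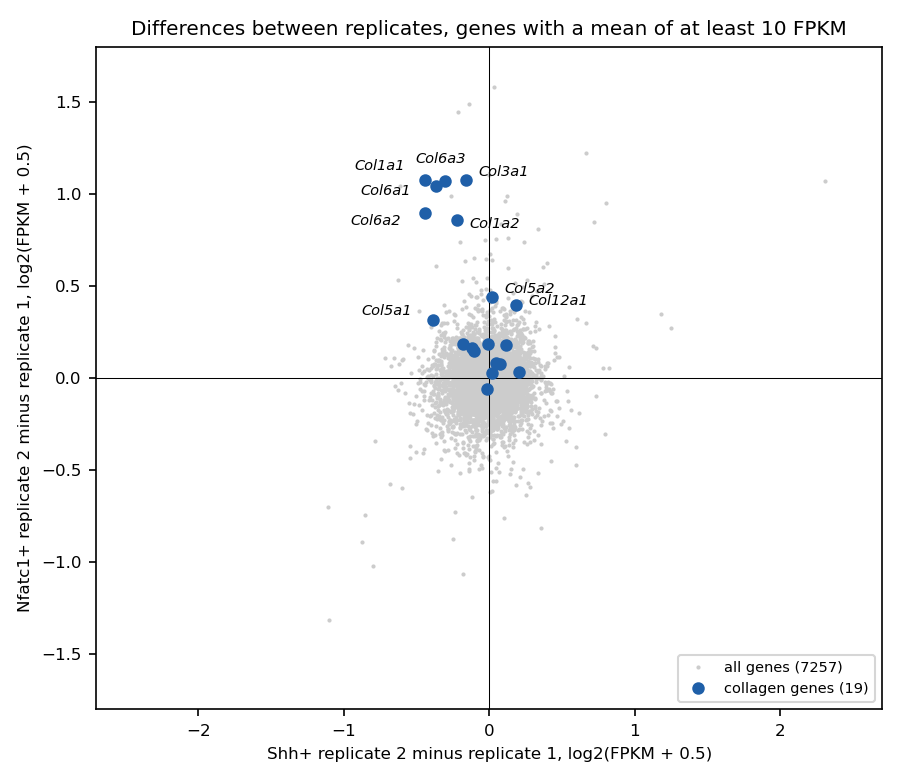
Difference between replicate 2 and replicate 1 on the log2(FPKM + 0.5) scale in Shh+ cells (horizontal axis) and in Nfatc1+ cells (vertical axis) for the 7257 genes that averaged 10 FPKM or more (grey) and the 19 collagen genes among them (blue); 8 genes lie outside the axes. Col1a1, Col1a2, Col3a1, Col6a1, Col6a2 and Col6a3, which were picked by their difference on the vertical axis, stand there at 0.86 to 1.08. On the horizontal axis they lie below 0.

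Markers of other cell types moved between the same libraries. Of 10 dermal fibroblast markers, 10 were higher in Nfatc1+ replicate 2 than in replicate 1, and 3 were higher in Shh+ replicate 2 than in replicate 1. Over all 23361 genes, 8572 were higher in Nfatc1+ replicate 2 than in replicate 1, and 7785 were higher in Shh+ replicate 2. Of these 23361 genes, 6269 were listed at 0 in all libraries. Such counts take no account of the size of a difference. Lum, a proteoglycan of collagen fibrils, was at 12.1 and 10.00 FPKM in Shh+ cells, against 6.20 and 12.8 FPKM in Nfatc1+ cells, and Twist2 at 3.71 and 2.34 FPKM in Shh+ cells, against 2.09 and 4.83 FPKM in Nfatc1+ cells. Pdgfra, the defining receptor of fibroblasts, was at 0.943 and 0.631 FPKM in Shh+ cells, against 1.02 and 1.71 FPKM in Nfatc1+ cells. Mfap5, too low to be tested, was at 0.0743 and 0 FPKM in Shh+ cells, against 0.482 and 0.668 FPKM in Nfatc1+ cells. The fibroblast markers Fbln1, Postn and Thy1 changed less between the Nfatc1+ replicates than Lum, Twist2 and Pdgfra. Fbln1 was at 150 and 128 FPKM in Shh+ cells, against 85.8 and 88.2 FPKM in Nfatc1+ cells. Postn was at 82.8 and 136 FPKM in Shh+ cells, against 116 and 131 FPKM in Nfatc1+ cells. Thy1 was at 5.78 and 5.32 FPKM in Shh+ cells, against 13.5 and 15.3 FPKM in Nfatc1+ cells. Between the populations, 2 of the 8 fibroblast markers tested were higher (25%, against 18.1% of all tested genes) and 1 lower in Shh+ cells (12.5%, against 18.9%). The summed level of the 10 markers was 584 and 709.9 FPKM in Shh+ cells, against 269 and 319 FPKM in Nfatc1+ cells. Most of the sum in Shh+ cells was Dcn, another fibril proteoglycan, at 326 and 425 FPKM in Shh+ cells, against 40.3 and 57.7 FPKM in Nfatc1+ cells. All 10 endothelial and mural markers and 6 of 7 blood markers were also higher in Nfatc1+ replicate 2 than in replicate 1, with summed levels of 34.3 to 42.9 FPKM and 85.1 to 114 FPKM in Shh+ cells and of 40.1 to 44.8 FPKM and 54.8 to 131 FPKM in Nfatc1+ cells. Markers of Schwann cells and melanocytes were higher in replicate 2 in both populations, 10 of 10 in Shh+ cells and 9 of 10 in Nfatc1+ cells, and the 8 muscle markers summed to at most 2.15 FPKM. Of 8 markers of the dermal papilla and its condensate, 7 were higher in Nfatc1+ replicate 2 than in replicate 1, and their summed levels were 47.0 to 48.3 FPKM in Shh+ cells and 102 to 109.6 FPKM in Nfatc1+ cells. Most of the sum in Nfatc1+ cells was Vcan and Prdm1. Of the 6 papilla markers tested, 2 were higher (Crabp1 and Alpl) and 3 lower (Sox2, Prdm1 and Vcan) in Shh+ cells. These are 33.3% and 50%, against 18.1% and 18.9% of all tested genes. Prdm1 was at 7.61 and 6.03 FPKM in Shh+ cells, against 34.9 and 39.0 FPKM in Nfatc1+ cells. Sox2 was at 0.687 and 1.24 FPKM in Shh+ cells, against 5.21 and 6.39 FPKM in Nfatc1+ cells. Crabp1 was at 15.4 and 11.6 FPKM in Shh+ cells, against 3.55 and 5.89 FPKM in Nfatc1+ cells. Alpl was at 1.93 and 1.21 FPKM in Shh+ cells, against 0.110 and 0.197 FPKM in Nfatc1+ cells, and passed the minimum through Shh+ cells. The part of other cell types in the levels of Col1a1, Col1a2, Col3a1 and the type VI genes was not tested.

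The genes with this pattern lie on several chromosomes. Col3a1 and Col5a2 lie tail to tail on chromosome 1 with 24.6 kb between them, and Col5a2 was higher and Col3a1 lower in Shh+ cells. Col6a2 and Col6a1 lie 85.2 kb apart on the same strand of chromosome 10, whereas Col6a3, Col1a1 and Col1a2 lie on chromosomes 1, 11 and 6. The promoter windows of Col3a1 and Col1a2 are shown because both genes were near 2-fold higher in Nfatc1+ replicate 2 than in replicate 1. Capitals mark the same motifs as in the windows above. The Col3a1 window has a TATAAA 117 bases before the start and 37.7% G and C, and the Col1a2 window has a CCAAT 109 bases before the start, another at the start, GC boxes 205 and 188 bases before it and 61.0% G and C.
Col3a1 (chr1:45311288-45311587, plus strand): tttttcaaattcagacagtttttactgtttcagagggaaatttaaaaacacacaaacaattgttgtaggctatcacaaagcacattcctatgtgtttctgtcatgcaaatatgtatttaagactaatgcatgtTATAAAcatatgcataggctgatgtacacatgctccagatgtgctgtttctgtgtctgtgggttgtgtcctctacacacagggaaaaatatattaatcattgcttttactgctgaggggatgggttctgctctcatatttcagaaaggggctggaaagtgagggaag
Col1a2 (chr6:4505368-4505667, plus strand): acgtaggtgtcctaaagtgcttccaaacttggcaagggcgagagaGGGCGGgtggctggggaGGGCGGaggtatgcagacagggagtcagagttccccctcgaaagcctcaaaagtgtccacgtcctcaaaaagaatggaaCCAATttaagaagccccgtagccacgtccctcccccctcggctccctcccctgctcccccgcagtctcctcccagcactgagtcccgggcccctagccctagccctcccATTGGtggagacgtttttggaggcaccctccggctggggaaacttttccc

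Genes that modify, cleave and cross-link collagen chains were called in shares near those of all tested genes. From a list of 33 measured genes, 27 were tested, of which 7 were higher (25.9%, against 18.1% of all tested genes) and 5 lower in Shh+ cells (18.5%, against 18.9%). With 2-fold or more also required, 3 were higher (4.77% of all tested genes were) and 3 lower (5.81% of all tested genes were). Without Shh+ replicate 2, 8 genes were higher and 3 lower in Shh+ cells. P4ha2, a chain of the prolyl hydroxylase that stabilises the triple helix, was at 24.2 and 18.2 FPKM in Shh+ cells, against 8.48 and 8.36 FPKM in Nfatc1+ cells (log2 fold change 1.27 ± 0.13 SE, adjusted p = 0.000483 by limma). Leprel1, a prolyl 3-hydroxylase, was at 3.24 and 2.51 FPKM in Shh+ cells, against 8.77 and 8.76 FPKM in Nfatc1+ cells (log2 fold change −1.47 ± 0.14 SE, adjusted p = 0.000302 by limma). The lysyl hydroxylase Plod2 was at 14.0 and 14.8 FPKM in Shh+ cells, against 8.93 and 8.40 FPKM in Nfatc1+ cells (log2 fold change 0.70, adjusted p = 0.00113 by limma). Serpinh1, the collagen chaperone HSP47, was at 285 and 228 FPKM in Shh+ cells, against 188 and 183 FPKM in Nfatc1+ cells (log2 fold change 0.46, adjusted p = 0.0129 by limma, and 0.0567 without Nfatc1+ replicate 2).

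Among the proteases that trim procollagens, Bmp1 and its relative Tll1, which remove the carboxyl propeptide, moved in opposite directions. Bmp1 was at 28.6 and 28.8 FPKM in Shh+ cells, against 66.5 and 64.8 FPKM in Nfatc1+ cells (log2 fold change −1.18 ± 0.06 SE, adjusted p = 1.94e-05 by limma). Tll1 was at 14.2 and 15.0 FPKM in Shh+ cells, against 5.16 and 6.45 FPKM in Nfatc1+ cells (log2 fold change 1.27 ± 0.12 SE, adjusted p = 0.000316 by limma). Adamts3, which removes the amino propeptide, was low, at 0.950 and 0.866 FPKM in Shh+ cells, against 0.0695 and 0.125 FPKM in Nfatc1+ cells (log2 fold change 1.24 ± 0.24 SE, adjusted p = 0.00761 by limma). It averaged under 0.5 FPKM in Nfatc1+ cells and passed the minimum through Shh+ cells, and it is 1 of the 7 processing genes counted as higher and 1 of the 3 at 2-fold or more. Lox, the lysyl oxidase that cross-links fibrils, was not called, with 1.75 and 2.21 FPKM in Shh+ cells and 1.498 and 2.561 FPKM in Nfatc1+ cells.

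From a list of 10 measured receptors for collagen, 7 were tested, and 0 were higher (against 18.1% of all tested genes) and 5 lower in Shh+ cells (71.4%, against 18.9%). Itga1, the integrin chain that binds type I and type IV collagen together with Itgb1, was at 0.621 and 1.13 FPKM in Shh+ cells, against 8.01 and 9.11 FPKM in Nfatc1+ cells (9.77-fold higher in Nfatc1+ cells, log2 fold change −2.74 ± 0.20 SE, adjusted p = 9.81e-05 by limma). Mrc2, an endocytic receptor that takes up collagen, was at 4.59 and 3.52 FPKM in Shh+ cells, against 11.2 and 12.4 FPKM in Nfatc1+ cells (log2 fold change −1.44 ± 0.14 SE, adjusted p = 0.000332 by limma). Itgb1, the shared partner of the collagen-binding integrins, was at 61.6 and 64.8 FPKM in Shh+ cells, against 89.7 and 90.2 FPKM in Nfatc1+ cells (log2 fold change −0.51, adjusted p = 0.000732 by limma). Of the discoidin domain receptors, Ddr1 was not called, with 94.98 and 87.26 FPKM in Shh+ cells and 98.1 and 94.3 FPKM in Nfatc1+ cells. Ddr2 was at 0.639 and 0.441 FPKM in Shh+ cells, against 1.39 and 1.54 FPKM in Nfatc1+ cells (log2 fold change −0.92, adjusted p = 0.0146 by limma), and its call ended without Shh+ replicate 2 (adjusted p = 0.0527) or Nfatc1+ replicate 2 (0.0759).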

How the data were processed

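RNA of FACS-sorted cells was sequenced as paired-end reads on an Illumina HiSeq instrument. The authors mapped the reads to GRCm38/mm10 with TopHat 2.0.13 and quantified genes with Cufflinks 2.2.1, and the submitters' processing notes also name HTSeq without a role. The deposited values are FPKM for 23361 genes; they hold no read counts, and the gene annotation and strandedness are not given in the sources used here. Values were log2(FPKM + 0.5) transformed, genes averaging 0.5 FPKM or more over the libraries were kept, and Shh+ was compared with Nfatc1+ with limma 3.58.1 (lmFit, eBayes with trend; R 4.3.3) on all 4 libraries without covariates, two-sided, in place of the authors' Cufflinks test, which needs the reads. The procedure was tested on simulated data. Alternatives were pseudocounts of 0.1 and 1, no filter or a filter at 2 FPKM, no trend, upper-quartile scaling, median centring, a replicate block, leaving out each library, and the study's rule of unadjusted p under 0.01 with at least 2-fold.

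Every collagen gene may be named, with values in all libraries where it was called or reached 10 FPKM. From the other lists, values are given for the 4 largest changes and for genes that act on a collagen named here. Values of the fibroblast markers Lum, Twist2, Pdgfra, Mfap5 and Postn are given outside that rule. The collagen genes and lists were chosen with earlier results of these data known. Of the list genes only Col21a1 had no row, and 1 gene of the hemidesmosome list is not reported here. Gene positions and exon overlaps are from GENCODE M21 (GRCm38) and promoter windows from RefSeq (GRCm38.p6), read with Python 3.11.15 and pandas 2.3.3. Without counts, no interval from counting error can be given.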

Additional observations from a re-analysis of the deposited data

How the results depend on the processing

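Of the 19 collagen genes called, 14 (5 higher and 9 lower in Shh+ cells) kept their call and direction under each of the 12 alternatives that changed the fit, as far as these could test them. Under the rule of an unadjusted p under 0.01 with at least 2-fold, which calls fewer genes by construction, 2 collagen genes were higher and 9 lower in Shh+ cells, as were 3 and 3 collagen processing genes, and 0 and 3 receptor and hemidesmosome genes. Leaving out 1 library gave 5 collagen genes higher in Shh+ cells each time and 10 to 17 lower in them, and 6 to 8 processing genes higher and 3 to 6 lower; the library left alone in its population was then assumed to vary like the other population. Without any filter the call of Col3a1 (adjusted p = 0.109 by limma) and that of Col15a1 (0.0787) ended, and without trend so did those of Col3a1 (0.117), Col15a1 (0.0659), Col4a5 (0.0778) and Serpinh1 (0.0592), while Col8a2 became called (0.0273); upper-quartile scaling ended that of Col4a5 (0.0507). Reversals of sign were limited to genes that were not called. Lox, at a log2 fold change near 0, changed sign with a pseudocount of 0.1 (0.00489), upper-quartile scaling (0.00968) and median centring (0.0150), and leaving out 1 library gave −0.31 to 0.31 for Lox, −0.14 to 0.39 for Col11a2, −0.0728 to 0.0740 for Col4a1 and −0.90 to 0.16 for Col6a3. The causes were not tested.

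With a replicate block, 5 collagen genes were higher and 16 lower in Shh+ cells, since Col1a1 (adjusted p = 0.0346 by limma) and Col1a2 (0.0253) became called; no other collagen call changed. The labels do not say what a replicate number shares. The replicate differences of Shh+ and Nfatc1+ cells correlated across 12750 genes with r = 0.114 (rho = 0.0483), and genes are not independent replicates; with 2 pairs the numbers were not shown to pair the libraries. Shh+ replicate 2 was the shallowest library, and the collagen genes under 0.5 FPKM were too low to be compared.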
